A study of Mus musculus with 2 samples.

Results

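The genes described here encode 31 proteins of 2 signalling routes, the PI3K-mTOR route with 16 genes and the Ras-MAPK route with 15. They were looked up by name among the genes listed for each peak of a Sox4 chromatin pull-down, and 28 of the 31 were listed for at least 1 of its 8730 peaks. Being listed, which needs a peak inside the gene or at most 25 kb away, was the case for 48.9% of the genes examined. Hras was found under its older symbol Hras1. The whole list was read against 20953 mouse protein-coding genes. The pull-down came from C57BL/6 progenitor B cells of embryonic fetal liver. These cells had received retroviruses for the biotin ligase BirA, for p190 Bcr-Abl, for SE-Cre and for BAP-Sox4, with a sort after each step, and p190 Bcr-Abl had immortalized them. BAP-Sox4 is Sox4 with a tag that BirA can biotinylate, so that streptavidin beads take up the tagged protein with its DNA (bioChIP). The series has 1 bioChIP library and 1 input library from these cells, and the values below are those of the bioChIP library's peak list. The carried Sox4 was retroviral, and every cell also carried the Bcr-Abl oncogene. No library without tagged Sox4 was analysed here, so a peak alone is no proof of Sox4 binding.

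Phosphoinositide 3-kinase (PI3K) makes a membrane lipid that recruits the kinases PDK1 and Akt. Akt blocks the TSC complex, which releases the GTPase Rheb to switch on mTOR complex 1, a driver of protein synthesis and cell growth. In the other route, Ras GTPases switch on the Raf, MEK and ERK kinases in turn, and ERK signalling induces its own inhibitors, among them dual-specificity phosphatases and Sprouty proteins. Both routes act downstream of the pre-B-cell receptor and of cytokine receptors in progenitor B cells, and Bcr-Abl is known to feed into both.

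The peak list gives 3 measures of strength for each peak. The tag number is the count of reads in the peak, the fold is the ratio of tags to the background expected by the peak caller, and the score is minus 10 log10 of the p-value. All 3 are the authors' values for 1 library without a replicate, so no test between genes was made. The peaks held 25 to 5070 tags (median 71), had a median fold of 4.43 and scored from 50.03 to 3179.3. Ranges in brackets after tag numbers are exact Poisson 95% intervals, and ranges after shares are exact Clopper-Pearson 95% intervals. Both cover counting error only. As a check of the labelled cell type, 8 of 10 progenitor B marker genes had a peak within 5 kb of a start, against 0 of 13 markers of T cells, myeloid cells, erythroid cells and hepatocytes. Cd79b and Pax5 were the progenitor B markers without one. The count depends on the markers chosen: 3 of the 4 T cell markers and 1 of the 3 erythroid markers were listed for a peak farther away, and Cd3d of T cells (score 54.3) and Elane (score 59.2) and Cd68 (score 344) of myeloid cells, which were not on the list and were named after their values were seen, had a promoter peak. A peak at a gene is not a measure of its expression.

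Most of the signalling genes had a Sox4 peak at their start. A promoter peak, meaning a peak interval within 5 kb of an annotated transcription start site (TSS), was found at 26 of the 31 genes (83.9%, 66.3 to 94.5%), and it was found at 32.8% of all genes examined. The 31 genes were chosen with earlier results of these data known, and the interval does not cover that choice. In longer lists of other genes of the 2 routes, the share was 62.5% (PI3K-mTOR) and 72.5% (Ras-MAPK). In the PI3K-mTOR arm 13 of 16 genes had one (54.4 to 96.0%), and in the Ras-MAPK arm 13 of 15 (59.5 to 98.3%). The 2 intervals overlap over most of their length. All 26 genes had a peak over a start and not only near one, as had 28.4% of all genes examined. A part of this background consists of genes with few CpG dinucleotides at the start. Among the 7666 genes whose promoter window was CpG-rich by the measure given further on, 56.4% had a promoter peak. Of the 31 genes, 25 had such a window and 20 of these had a promoter peak, with 9 of 12 in the PI3K-mTOR arm and 11 of 13 in the Ras-MAPK arm. The genes listed for no peak, which puts the nearest peak beyond 25 kb, were Pik3ca, Pik3cb and Tsc2, all of the PI3K-mTOR arm. Hras and Nf1, of the Ras-MAPK arm, were listed only for peaks more than 5 kb from their starts.

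**Figure D1:**
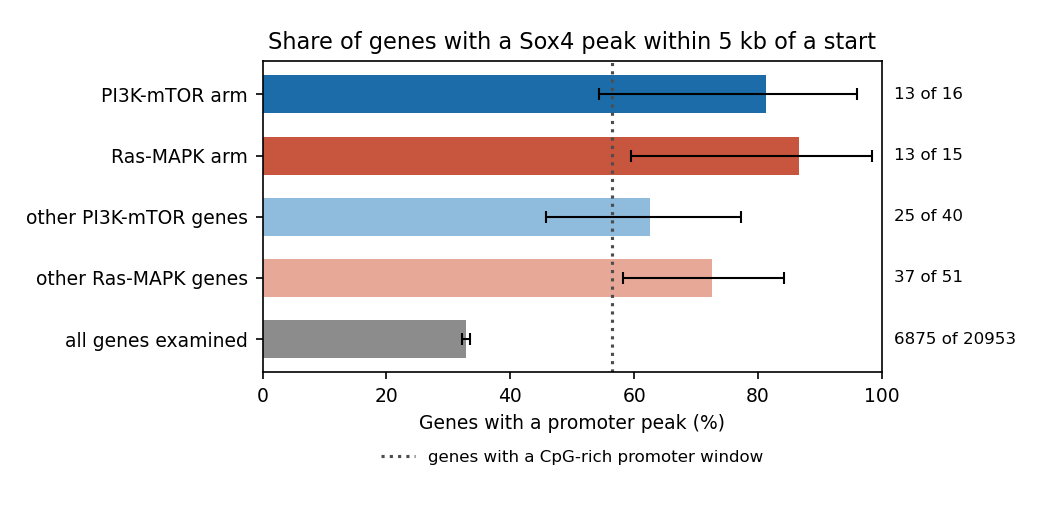
Bars give the percentage of genes with a Sox4 peak within 5 kb of a start in each gene group, with exact 95% intervals as error bars and the counts at the right, and the dotted line marks 56.4% for genes with a CpG-rich promoter window. Both arms stand at 13 genes, of 16 and of 15, and all genes examined stand at 6875 of 20953.

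The arms overlapped in score and in fold. With each gene entered by its highest-scoring promoter peak, the median score was 111 in the PI3K-mTOR arm and 205 in the Ras-MAPK arm, and 119 over all 6875 genes with a promoter peak. The 95% binomial intervals of the arms' medians overlapped, at 61.6 to 354 in the PI3K-mTOR arm and 118 to 374 in the Ras-MAPK arm. These intervals treat the chosen genes of an arm as a random draw, which they are not. Their overlap is therefore no test between the arms. With the higher-scoring 4365 peaks alone the medians were 207 in the PI3K-mTOR arm (8 genes) and 209.7 in the Ras-MAPK arm (11 genes). That setting removes low scores by construction, and more genes of the PI3K-mTOR arm, so it cannot show whether the arms differ in score. The score exceeded that overall median at 4 of 13 PI3K-mTOR genes and 10 of 13 Ras-MAPK genes. The ranges overlapped widely, from 50.2 to 506 in the PI3K-mTOR arm and from 61.6 to 645 in the Ras-MAPK arm. The median fold was 4.68 in the PI3K-mTOR arm and 4.83 in the Ras-MAPK arm, against 4.51 over all genes with a promoter peak, and 7 of 13 genes in each arm exceeded the overall median. Peaks of the PI3K-mTOR arm were narrower, with a median width of 940 bp and 70 tags, as compared with 1474 bp and 116 tags in the Ras-MAPK arm and 982 bp and 78 tags overall. Across all genes with a promoter peak, the score was correlated with tags per kb of peak (Spearman's rho 0.851), with width (rho 0.744) and with fold (rho 0.722). These are descriptions across 6875 genes of 1 library, which are not replicates, and all these measures share the same tags.

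**Figure D2:**
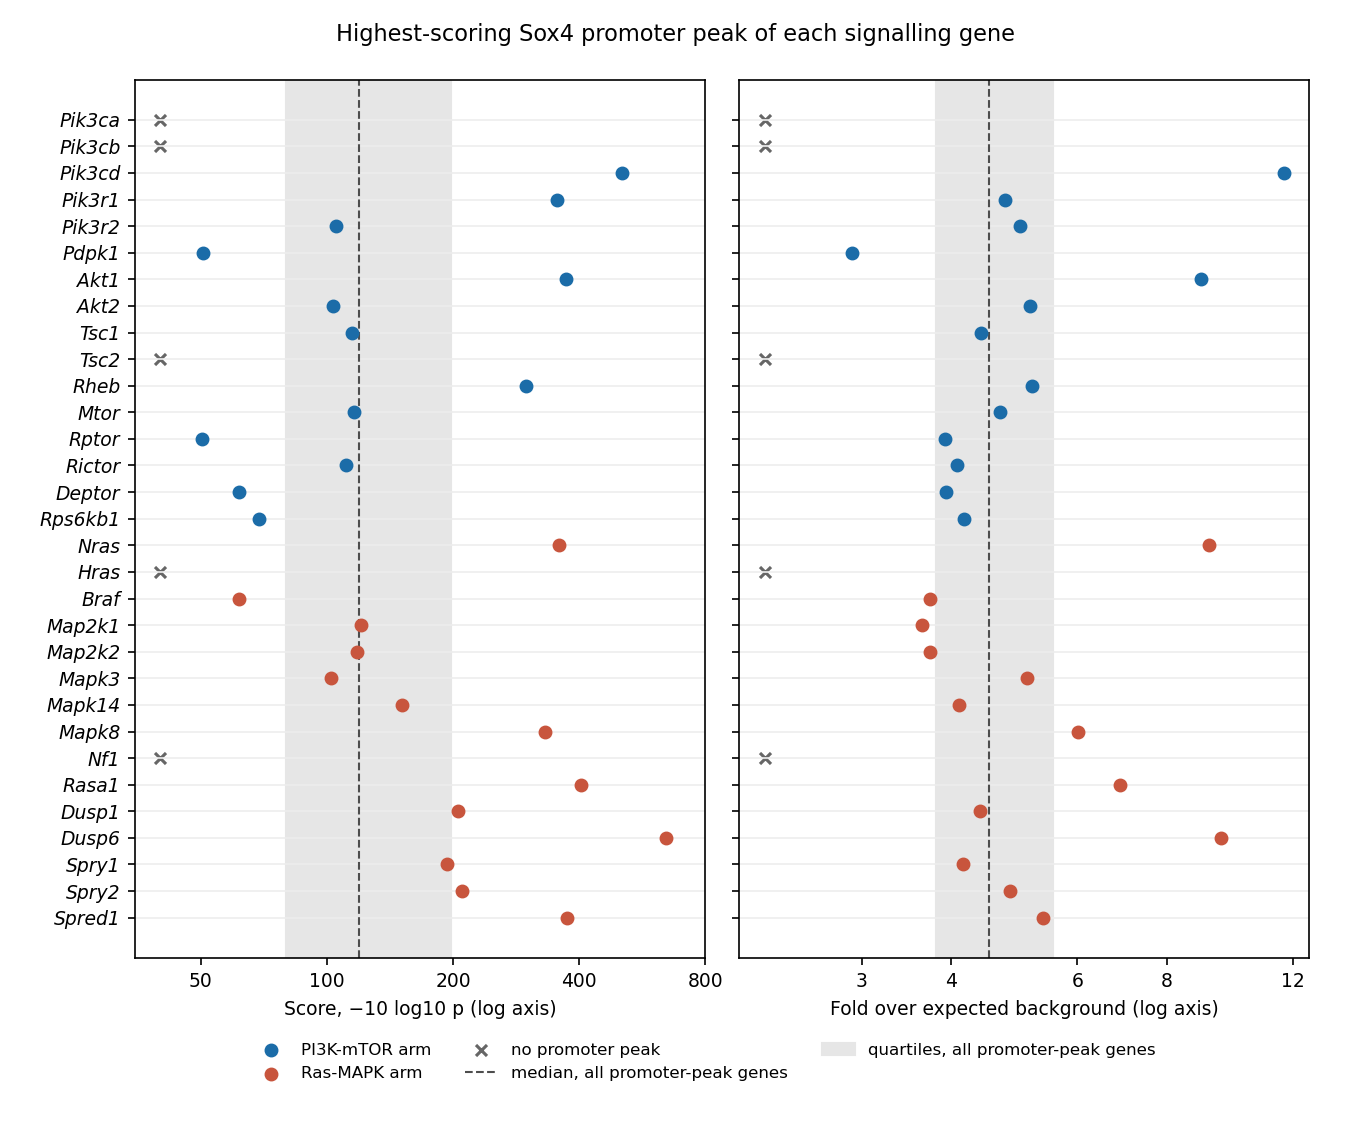
Each dot is the highest-scoring promoter peak of a gene, with the score on the left and the fold over expected background on the right (both log axes), PI3K-mTOR genes above Ras-MAPK genes. The dashed line and grey band give the median and quartiles over all 6875 genes with a promoter peak (119 for the score, 4.51 for the fold), and crosses mark Pik3ca, Pik3cb, Tsc2, Hras and Nf1, which had no promoter peak.

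The starts of 5 of these genes are printed as 300-base windows of the coding strand, from 250 bases before the start to 50 after it (RefSeq, GRCm38.p6). Pik3cd, Rptor and Rasa1 are shown because their windows hold AACAAAG, a sequence that SOX proteins are known to bind. Akt2 also holds it, in 1 of 4 windows, and is not printed. Nras is shown because it holds the shorter ACAAAG beside one of the highest folds. Dusp6 is shown because it had the highest-scoring promoter peak of all 31 genes and holds neither. Capitals mark ACAAAG or its reverse complement CTTTGT.
Pik3cd, chr4:149698659-149698958, minus strand: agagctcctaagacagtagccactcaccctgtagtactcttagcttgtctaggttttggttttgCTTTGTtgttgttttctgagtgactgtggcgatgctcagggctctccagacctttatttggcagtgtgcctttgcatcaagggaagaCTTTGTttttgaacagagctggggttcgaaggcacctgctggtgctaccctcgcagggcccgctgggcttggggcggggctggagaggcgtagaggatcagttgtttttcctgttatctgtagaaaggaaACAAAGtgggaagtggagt
Rptor, chr11:119602655-119602954, plus strand: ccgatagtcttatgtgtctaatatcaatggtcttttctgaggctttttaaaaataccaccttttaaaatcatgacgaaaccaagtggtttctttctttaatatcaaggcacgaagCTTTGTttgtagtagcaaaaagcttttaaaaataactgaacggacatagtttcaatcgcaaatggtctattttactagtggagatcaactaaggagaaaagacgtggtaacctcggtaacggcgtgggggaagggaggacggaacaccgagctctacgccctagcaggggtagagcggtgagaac
Nras, chr3:103058035-103058334, plus strand: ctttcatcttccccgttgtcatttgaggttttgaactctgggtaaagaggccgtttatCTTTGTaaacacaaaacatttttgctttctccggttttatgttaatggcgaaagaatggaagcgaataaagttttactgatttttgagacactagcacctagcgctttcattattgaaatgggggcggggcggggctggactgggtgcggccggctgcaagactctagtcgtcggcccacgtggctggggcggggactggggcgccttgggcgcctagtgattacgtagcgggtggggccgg
Rasa1, chr13:85289437-85289736, minus strand: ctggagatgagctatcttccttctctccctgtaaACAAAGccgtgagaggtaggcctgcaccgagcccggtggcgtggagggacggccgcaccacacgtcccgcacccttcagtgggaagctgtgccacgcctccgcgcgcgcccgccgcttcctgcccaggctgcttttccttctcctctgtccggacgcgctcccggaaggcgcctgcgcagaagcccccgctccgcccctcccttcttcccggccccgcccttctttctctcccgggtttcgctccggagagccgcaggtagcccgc
Dusp6, chr10:99262981-99263280, plus strand: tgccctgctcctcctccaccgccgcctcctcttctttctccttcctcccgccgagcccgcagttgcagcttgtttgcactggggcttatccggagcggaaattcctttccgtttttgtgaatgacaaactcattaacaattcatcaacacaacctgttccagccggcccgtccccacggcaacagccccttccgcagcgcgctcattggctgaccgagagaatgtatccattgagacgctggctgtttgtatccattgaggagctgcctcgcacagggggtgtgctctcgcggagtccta

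The Pik3cd window holds AACAAAG 3 times, counting both strands, with 2 matches before the start and 1 after it. Only 2 of 20418 windows (0.0098%) hold it 3 or more times. The Rptor and Rasa1 windows hold it 1 time each. The Nras window holds ACAAAG 1 time, and the Dusp6 window holds no match to it. The peaks are placed on mm9 and the windows on GRCm38.p6, so where the capitals lie under a peak was not determined. For Pik3cd the windows could be tied to the listed starts by their spacing, because the gaps of 22619 and 12773 bp between 3 starts are the same in the peak list's distances and in the RefSeq windows. By that spacing the printed window belongs to a start that a peak of fold 4.24 covered, not to the peak of fold 11.6 that lay 3659 bp upstream of it.

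Of the 3 catalytic subunit genes of PI3K among the 31, Pik3cd had promoter peaks and the other two had no listed peak. It encodes p110 delta, the form enriched in white blood cells. Pik3ca and Pik3cb encode p110 alpha and p110 beta, which most cell types use. Outside the 31 genes, Pik3cg, which encodes p110 gamma, had a weak peak over its start (52 tags, fold 3.33, score 62.2). Pik3cd had 4 promoter peaks, more than any other of the 31 genes. They were counted over several listed Pik3cd starts. Having 3 or more was seen at 0.382% of all genes examined and at 1.16% of those with a promoter peak. Of the 31 genes, 5 had 2 or more promoter peaks (Pik3cd, Pik3r2, Mtor, Dusp6 and Spry2), as had 3.15% of all genes examined. Among genes with a promoter peak, that was 19.2% of the signalling genes and 9.61% of all. The peaks of Pik3cd were as follows. The highest-scoring lay on chromosome 4 from 149076475 to 149077420 (mm9), 738 bp upstream of the nearest Pik3cd start, and held 128 tags (107 to 152) at 11.6-fold enrichment, scoring 506. This was the only promoter peak of the 31 genes with a fold of 10 or more, which 1.48% of all genes examined had. Among genes with a promoter peak, that was 3.85% of the signalling genes and 4.51% of all, so the share was not raised. A weaker peak covered the next start downstream, from 149072219 to 149073214. It held 72 tags at 4.24-fold enrichment, scoring 112. The other promoter peaks lay in exons, at 1454 bp past a start (61 tags, fold 2.74) and at 4658 bp past the start of the shortest transcript (93 tags, fold 5.37, score 183). Whether the exonic peak belongs to that start or to the longer transcripts around it cannot be told from the list.

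The 2 regulatory subunit genes of PI3K among the 31 both had promoter peaks. Of those outside the 31, Pik3r3 had one, and Pik3r4 and Pik3r5 had none. Pik3r1, which encodes p85 alpha with its shorter forms, had 1 broad peak over its start on chromosome 13 from 102536695 to 102538591, holding 177 tags (152 to 205) at 4.76-fold enrichment, scoring 354. It was 1896 bp wide, and its fold was close to the overall median. Pik3r2, which encodes p85 beta, had 2 weaker ones. The peak 659 bp inside the gene held 64 tags (49.3 to 81.7) at 4.99-fold enrichment, scoring 105. The peak over its start held 54 tags (40.6 to 70.5) with a fold of 3.0, and that interval also covered the start of 2010320M18Rik, which the list names as the closest gene.

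The 3 kinase genes directly below PI3K all had a promoter peak, as had 32.8% of all genes examined. Akt1 had a peak over its start on chromosome 12 from 113910975 to 113912783, with 165 tags (141 to 192) at 8.94-fold enrichment, scoring 372, and the fold was the second highest among the 13 genes of the arm. Akt2, the form best known for insulin-driven glucose uptake, had 70 tags (54.6 to 88.4) at 5.16-fold enrichment, scoring 103, with the peak over the start of 1 of its 2 sets of listed transcripts. Pdpk1, which encodes PDK1, the kinase that activates Akt, had one of the weakest peaks of the list. It held 50 tags (37.1 to 65.9) at 2.91-fold enrichment, scoring 50.6. The tag intervals of Akt2 and Pdpk1 overlap each other, and that of Akt1 lies above both.

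Of the TSC complex, which holds mTOR complex 1 in check, Tsc1 had a promoter peak and its partner Tsc2 had no listed peak. The Tsc1 peak covered the start on chromosome 2 from 28496099 to 28497151 with 101 tags (82.3 to 122.7) at 4.40-fold enrichment, scoring 115. Rheb, the GTPase that the complex inhibits and that activates mTOR, had a broader peak on chromosome 5 from 24347328 to 24348998. It held 155 tags (132 to 181) at 5.19-fold enrichment, scoring 299.

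The 5 genes of the mTOR complexes and of S6 kinase among the 31 all had promoter peaks, as had 32.8% of all genes examined. All 5 of these mTOR and S6 kinase genes scored below the median of all genes with a promoter peak. Among such genes outside the 31, Akt1s1 and Rps6kb2 had a promoter peak, and Mlst8 and Mapkap1, which encode further subunits of the complexes, had none. These genes outside the 31, like Pik3cg, Pik3r4 and Pik3r5, were named after their values were seen. Mtor encodes the kinase shared by both complexes. The peak over its start on chromosome 4 from 147822213 to 147823083 held 72 tags (56.3 to 90.7) at 4.68-fold enrichment, scoring 116. A second peak of similar size lay 3410 bp upstream (68 tags, fold 6.32, score 105). Rictor, which encodes the defining subunit of mTOR complex 2, had 67 tags (51.9 to 85.1) at 4.07-fold enrichment, scoring 111. Rptor, which encodes the raptor subunit of mTOR complex 1, had 37 tags (26.1 to 51.0) at 3.92-fold enrichment, scoring 50.2, which exceeded that of 0.175% of the genes with a promoter peak. Deptor, an mTOR-binding inhibitor, had 35 tags (24.4 to 48.7) at 3.93-fold enrichment, scoring 61.6. Rps6kb1 encodes S6 kinase 1, which mTOR complex 1 activates. Its peak held 62 tags (47.5 to 79.5) at 4.17-fold enrichment, scoring 68.9. It also covered the start of Tubd1, which the list names as the closest gene. Of the 26 highest-scoring peaks, this was the 1 that covered a further gene's start (3.85%), as against 24.4% over all genes with a promoter peak.

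Of the Ras GTPases, Nras had a strong promoter peak and Hras had none. The Nras peak covered the start on chromosome 3 from 102861836 to 102862856 with 118 tags (97.7 to 141) at 9.17-fold enrichment, scoring 359, in a width of 1020 bp. Hras was listed for 2 distant peaks. One lay 21088 bp past its start and covered the start of Rnh1 (63 tags, fold 4.12), and the other lay 21394 bp upstream and covered the start of Rassf7 (65 tags, fold 3.58).

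The 4 kinase genes of the Raf-MEK-ERK cascade all had a peak over the start, as had 28.4% of all genes examined, and none of the 4 peaks was strong. Braf had 38 tags (26.9 to 52.2) at 3.74-fold enrichment, scoring 61.6. Map2k1 and Map2k2 encode MEK1 and MEK2. Map2k1 had 98 tags (79.6 to 119) at 3.64-fold enrichment, scoring 120.45, and Map2k2 had 71 tags (55.5 to 89.6) at 3.73-fold enrichment, scoring 118. Both MEK genes were thus near the overall median in score and below the overall lower quartile of 3.81 in fold. Mapk3, which encodes ERK1, had 56 tags (42.3 to 72.7) at 5.11-fold enrichment, scoring 102.

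The stress kinases had broader peaks. Mapk14, which encodes p38 alpha, had 110 tags (90.4 to 133) over its start on chromosome 17 at 4.10-fold enrichment, scoring 151. Mapk8, which encodes JNK1, had 116 tags (95.9 to 139) on chromosome 14 from 34259629 to 34260806 at 6.01-fold enrichment, scoring 331. Their tag intervals overlap. These 2 kinases act beside the Ras-Raf-MEK-ERK cascade, and without them 11 of 13 Ras-MAPK genes had a promoter peak at the same median score of 205.

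Of the GTPase-activating proteins that turn Ras off, Rasa1 had a promoter peak and Nf1 none. The Rasa1 peak on chromosome 13 from 85427927 to 85429529 held 160 tags (136 to 187) at 6.88-fold enrichment, scoring 404, the second highest score of the Ras-MAPK arm. Nf1 encodes neurofibromin. It was listed for 1 peak, 9138 bp past its end, which covered a start of Rab11fip4 (38 tags, fold 3.93).

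The feedback inhibitors of the ERK route had a promoter peak in 5 of 5 cases, as had 32.8% of all genes examined and 56.4% of those with a CpG-rich promoter window. All 5 scored above the median of all genes with a promoter peak, but this role group was drawn with the values known. Among further genes of this kind outside the 31, 8 of 11 had a promoter peak, and 6 of these scored above that median. Dusp6, which encodes a phosphatase specific for ERK, had 2 promoter peaks on chromosome 10. The first, from 98723592 to 98725170, ended 695 bp upstream of the start and held 200 tags (173 to 230) at 9.52-fold enrichment, scoring 645, the highest score of any promoter peak of the 31 genes. The second, from 98725310 to 98727188, covered the start with 130 tags (109 to 154) at 3.26-fold enrichment, scoring 104. At Dusp6, as at Pik3cd, the strongest signal thus lay upstream of the start and not over it. Spred1, an inhibitor of Raf activation by Ras, had 200 tags (173 to 230) over its start at 5.37-fold enrichment, scoring 374. Dusp1, a phosphatase of p38, JNK and ERK, had 154 tags (131 to 180) at 4.39-fold enrichment, scoring 205. Spry1 and Spry2 encode Sprouty proteins, which damp receptor tyrosine kinase signals. Spry1 had 137 tags (115 to 162) at 4.15-fold enrichment, scoring 194. Spry2 had 3 promoter peaks within 3463 bp, and the one over its start held 113 tags (93.1 to 136) at 4.83-fold enrichment, scoring 209.7.

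Within the Ras-MAPK arm, the 5 inhibitors and the 4 Raf-MEK-ERK kinases did not overlap in score, but did in fold. The gap in score depended on which genes were counted with the kinases. Scores ran from 194 to 645 at the 5 inhibitors and from 61.6 to 120.45 at Braf, Map2k1, Map2k2 and Mapk3. With the Ras GTPases counted in, the kinase range reached 359 (Nras) and overlapped that of the inhibitors. Mapk14 (score 151) and Mapk8 (score 331) were not counted with these kinases either. The quartiles of the score over all genes with a promoter peak were 79.7 and 198. Folds ran from 4.15 to 9.52 at the inhibitors and from 3.64 to 5.11 at the kinases. Peak widths ran from 1557 to 1905 bp at the inhibitors and from 586 to 1123 bp at the kinases, so width moved with this difference in score. Tags per kb of peak ran from 72.6 to 127 at the inhibitors and from 64.8 to 87.3 at the kinases, which overlap. The part of width in the difference was not tested. These role groups were drawn with the values known. In the longer lists of other pathway genes, 8 of 11 further dual-specificity phosphatase, Sprouty and Spred genes and 8 of 14 further Raf, MAP2K and MAPK genes had a promoter peak. These shares were 72.7% and 57.1%, against 32.8% of all genes examined and 56.4% of genes with a CpG-rich promoter window. The share of the kinases was thus near that of CpG-rich genes. In these longer lists the scores overlapped, from 52.2 to 336 (median 169) at the inhibitors and from 82.1 to 372 (median 137) at the kinases. The median folds were 4.29 at those inhibitors and 4.51 at those kinases.

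**Figure D3:**
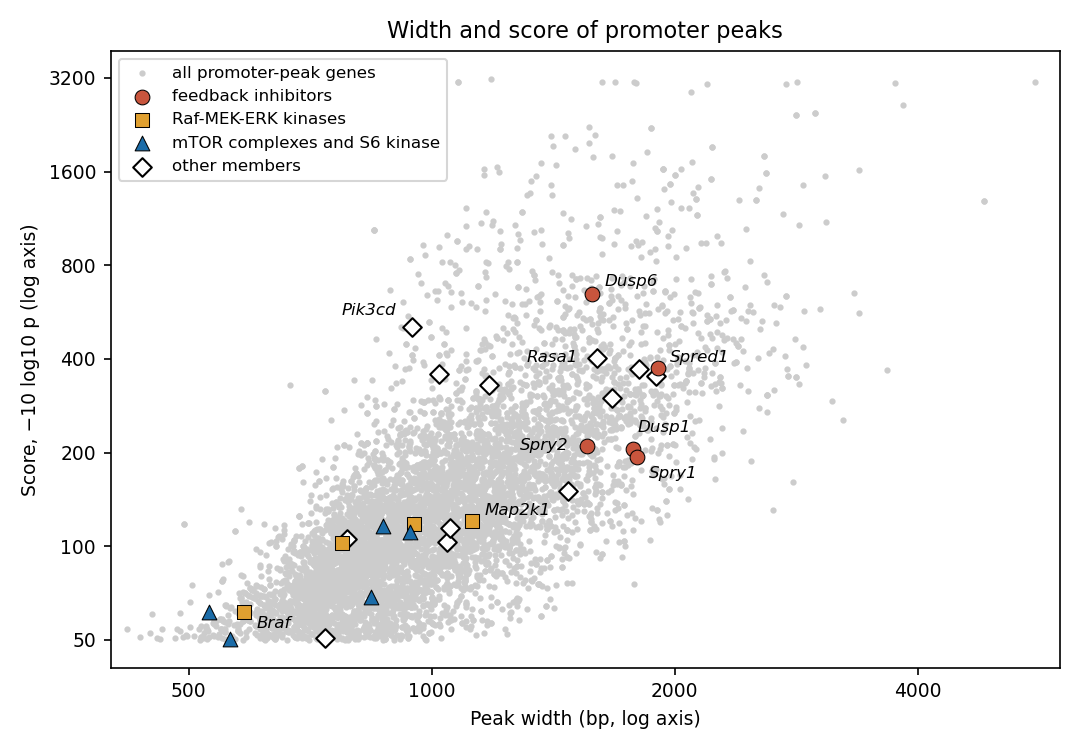
Each point is the highest-scoring promoter peak of a gene, with peak width in bp against score (both log axes). Grey dots are all 6875 genes with a promoter peak, filled symbols are 3 role groups and open diamonds the other members, and the feedback inhibitors sit at widths of 1557 to 1905 bp, to the right of the Raf-MEK-ERK kinases at 586 to 1123 bp.

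The list named the 31 genes for 57 peaks in all, of which 34 were promoter peaks and 23 lay within 5 kb of no start of theirs. No peak was listed for 2 of the genes at once. The highest score of all 57 belonged to a peak far from a start, inside Rptor. It lay on chromosome 11 from 119756941 to 119758081, 292633 bp past the Rptor start and 2824 bp before the end of the gene, and held 210 tags (183 to 240) at 19.9-fold enrichment, scoring 896. It ranked 84 of 8730 peaks by fold, whereas the peak over the Rptor start was near the lower limit of the list. The peak list names Chmp6, the next gene downstream, as its closest gene. Mtor had an exonic peak 21247 bp inside the gene with 75 tags (59.0 to 94.0) at 6.08-fold enrichment, scoring 165, also above the score at its start. Of the 23 distant peaks, 11 covered the start of another gene, such as a peak of 240 tags and score 567 over the start of Zbtb7a that was listed for Map2k2, 11154 bp past its end. The 5 kb limit fell in a gap, since the farthest promoter peak lay 4658 bp from a start (Pik3cd) and the nearest peak beyond it 18893 bp (Akt1, 66 tags, fold 5.46).

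**Figure D4:**
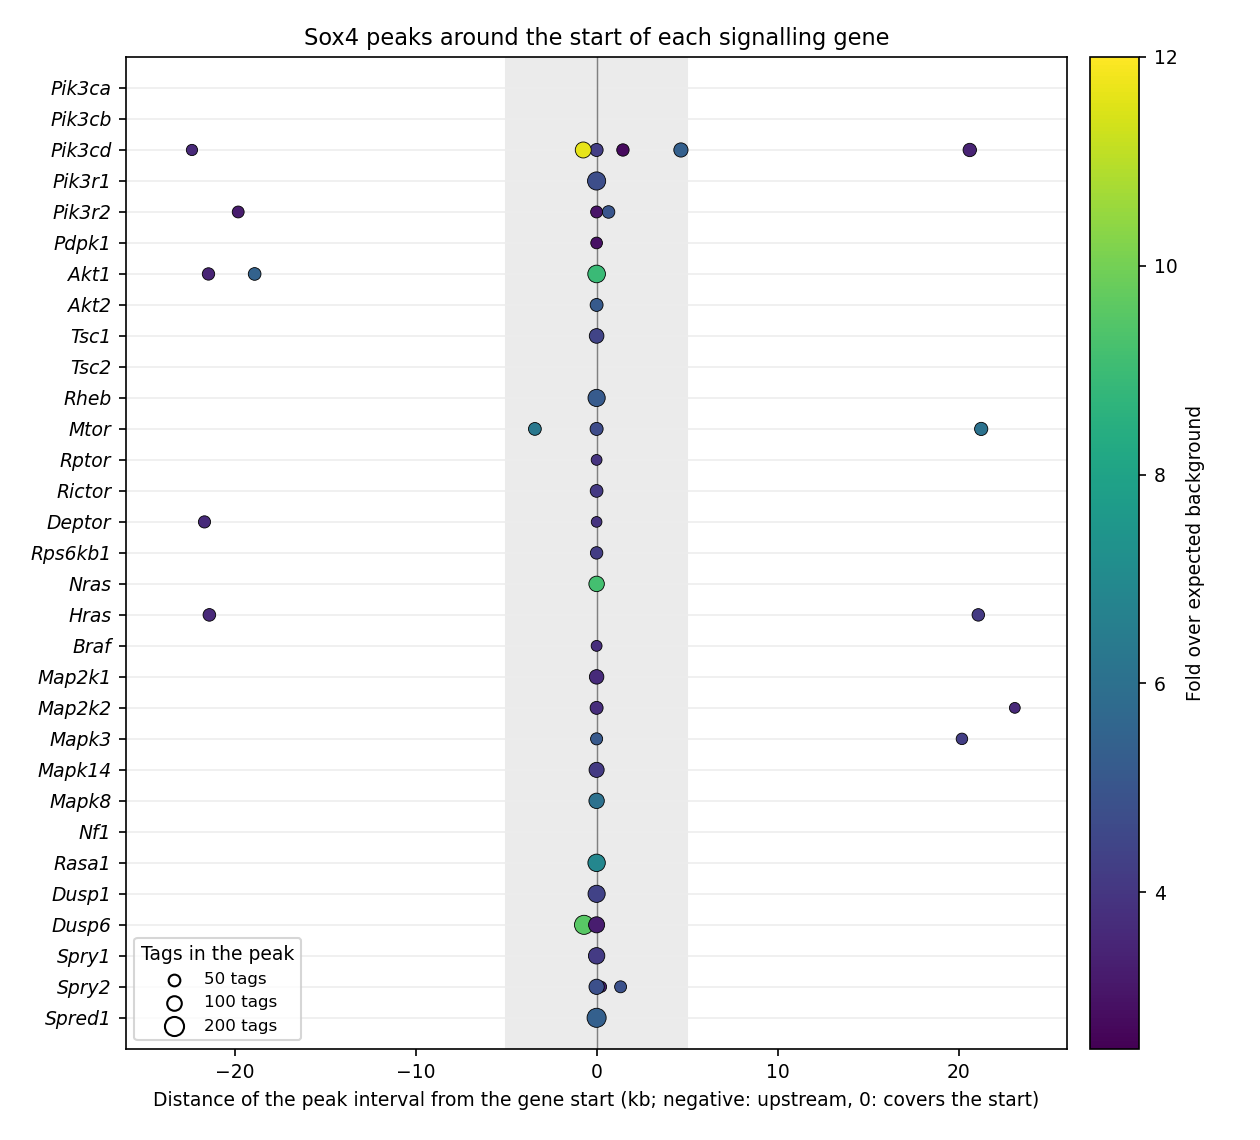
Every peak listed for a gene and within 25 kb of its start is drawn by its distance from the nearest listed start (kb, negative upstream, 0 where the peak covers it), with dot size for tags and colour for fold. Within the grey 5 kb zone most genes have 1 peak over the start, and the strongest peaks of Pik3cd (fold 11.6) and Dusp6 (fold 9.52) lie just upstream.

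Among further genes of the same pathways, promoter peaks were found at 25 of 40 other PI3K-mTOR genes (62.5%, 45.8 to 77.3%) and at 37 of 51 other Ras-MAPK genes (72.5%, 58.3 to 84.1%), and these intervals overlap those of the arms. The share was 32.8% over all genes examined and 56.4% over genes with a CpG-rich promoter window. Their median scores were 122 and 159, and their median folds 3.94 and 4.50. The highest-scoring of the first list was Pik3r3, a further PI3K regulatory subunit (167 tags, fold 7.72, score 504). Lamtor2 and Lamtor1 encode subunits of the lysosomal Ragulator complex that recruits mTOR complex 1. They had folds of 7.0 and 5.59 in peaks that also covered the starts of Ubqln4 and Tomt. Eif4ebp2, a translation inhibitor that mTOR switches off, scored 216 at 3.92-fold enrichment. In the second list Rps6ka2, which encodes an ERK-activated ribosomal S6 kinase, stood first (166 tags, fold 11.7, score 491). Dusp4 (fold 6.90), the Ras exchange factor gene Sos1 (fold 6.26) and Spred2 (fold 8.55) were also among the highest-scoring. Araf, which encodes a further Raf kinase, was not listed for any peak, and it was named here after its values were seen.

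The starts of the signalling genes were rich in CpG, with or without a peak. RefSeq promoter windows were at hand for 29 of the 31 genes (39 windows). A window counted as CpG-rich when its GC content was at least 55% and its observed over expected CpG ratio at least 0.6. By this measure 25 of 29 genes had a CpG-rich window (86.2%), in the PI3K-mTOR arm 12 of 15 and in the Ras-MAPK arm 13 of 14, and it held for 45.7% of all genes with a window. Set beside like genes the shares were closer, with 83.3% of the signalling genes that had a promoter peak and 77.3% of all genes that had one. All 5 genes without a promoter peak had one. Median GC content was 57.3% in the PI3K-mTOR arm and 66.0% in the Ras-MAPK arm, against 57.0% over all windows.

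ACAAAG stood in the windows of 8 of the 29 genes (27.6%), 5 of the PI3K-mTOR arm and 3 of the Ras-MAPK arm, on either strand, and in 19.1% of all genes with a window. Counted by window it was 9 of 39 (23.1%), against 16.7% of all 20418 windows. The longer AACAAAG, each match of which also contains ACAAAG, stood in 4 of 29 genes (13.8%) and in 5.75% of all genes with a window. The GC box GGGCGG stood in 23 of 29 genes (79.3%) and in 50.9% of all, and with a promoter peak in 79.2% of the signalling genes and 75.2% of all. The ETS core CCGGAAG stood in 6 of 29 (20.7%) and in 13.4% of all. It was present at 3 of 24 genes with a promoter peak and 3 of 5 without one (Pik3ca, Tsc2 and Nf1), whereas over all genes it was present at 22.9% with a promoter peak and 8.59% without. A match is a description of the letters in these 300 bases, and the sequence under the peak summits was not examined.

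**Figure D5:**
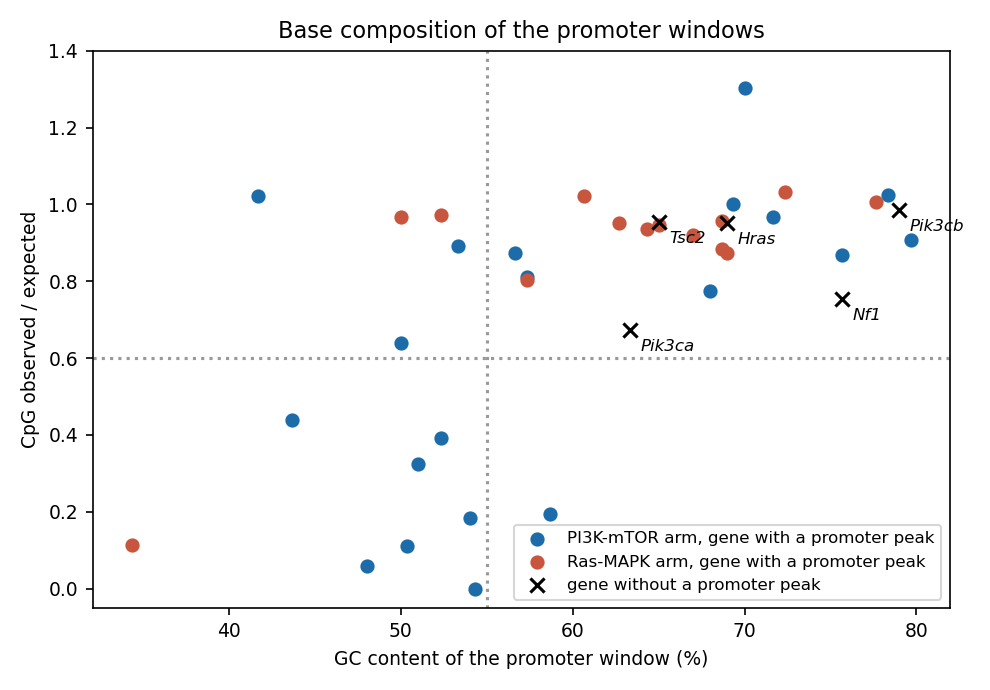
Each point is a RefSeq promoter window (some genes have several), with GC content (%) against the observed over expected CpG ratio, in blue for the PI3K-mTOR arm and red for the Ras-MAPK arm. Dotted lines mark the limits of 55% and 0.6, and the crosses of the 5 genes without a promoter peak all lie in the CpG-rich corner at the upper right.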

How the data were processed

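Sox4 bioChIP DNA of 1 library was analysed, and of the input library no file was used here. Bowtie 0.12.8, MACS 1.4.2 and build mm9 are named in the submitters' processing notes. Parameters, the control behind the fold, the annotation tool and sequencing depth are not given in the sources used here. Tags per peak are therefore the only depth known. The deposited tag counts are whole reads in a peak without normalization. As deposited, the fold is a ratio on a linear scale. The score column of the deposited list is headed as a p-value and was taken to be minus 10 log10 of it, because its lowest value lies just above 50. Positions and distances, per the file headers, are in bp.

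Listed transcripts were mapped to genes through RefSeq (GRCm38.p6). Of 15228 transcripts, 14992 were matched by accession, a further 192 through the symbol and 32 through an older symbol, and 12 were not matched. Values were computed with Python 3.11.15, pandas 2.3.3 and scipy 1.17.1. Protein-coding genes of the autosomes and X that have an NM transcript (20953) served as background. Distances run from the peak interval, and each gene took its nearest transcript. The members, their arms and roles, the lists of other genes and the motifs were chosen with earlier results of these data known. All members are accounted for, and of the other pathway genes the 5 per arm with the highest score were to be named, of which some are not reported here. Alternatives varied the distance limit, the peak strength and the gene assignment. With 1 library, no test between conditions was possible. The counting was tested on simulated data.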

Additional observations from a re-analysis of the deposited data

How the results depend on the processing

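The counts depended mainly on the strength asked of a peak. With peaks of fold 5 or more, 11 of 31 genes had a promoter peak, 5 in the PI3K-mTOR arm and 6 in the Ras-MAPK arm, against 11.9% of all genes examined, and the median fold of the PI3K-mTOR arm became 6.32. Other pathway genes then counted 6 (PI3K-mTOR) and 11 (Ras-MAPK). With the 4365 peaks that scored higher, the PI3K-mTOR arm counted 8 and its other genes 15, while the Ras-MAPK arm counted 11, against 18.9% of all genes. That setting removes low scores by construction. With the longer motif AACAAAG in place of ACAAAG the gene count was 4. The median score of the PI3K-mTOR arm was 207 with the higher-scoring peaks and 299 with fold 5 or more, against 111 with all peaks, and that of the Ras-MAPK arm 209.7 and 366, against 205. The intervals of the medians, 61.6 to 354 and 118 to 374, are wide enough to hold these values. The remaining values stayed within 1.5 times for a count, or within the 95% binomial interval over ranks for a median. These cover windows of 0, 1 and 20 kb, the closest gene only, peaks over a second start left out, and Mapk14 and Mapk8 left out. No paired analysis was possible because the series has 1 bioChIP and 1 input library, so leaving out a replicate was not possible either. Depth is unknown, and genes listed for no peak may have weaker signal than the list's threshold.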

Other observations

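Over all genes, ACAAAG stood in 14.4% of windows of genes with a promoter peak and in 17.9% of windows of genes without one, and the median GC content was 62.7% with a promoter peak and 53.3% without. Among the 29 signalling genes with a window the order was the other way, with a match at 8 of 24 genes with a promoter peak and 0 of 5 without. The 24 genes had 34 windows and the 5 genes had 5, so the first class had more places per gene for a match. With 5 genes in one class, this is a description only, and the part of base composition was not tested.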
